A study of Homo sapiens with 6 samples.

Results

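The miR-17-92 cluster is a group of microRNAs (miRNAs) that are cut from 1 primary transcript, MIR17HG. Its 9 mature miRNAs considered here were found by name in the counts of 6 small RNA libraries, and they were 9 of the 2588 miRNAs listed. They were hsa-miR-17-5p, hsa-miR-17-3p, hsa-miR-18a-5p, hsa-miR-18a-3p, hsa-miR-19a-3p, hsa-miR-20a-5p, hsa-miR-20a-3p, hsa-miR-19b-3p and hsa-miR-92a-3p, named below without the species prefix. The libraries came from A549, a human lung carcinoma epithelial line, and BEAS-2B, an immortalised human bronchial epithelial line, both of wild-type genotype in the sample labels. Cells of each line were left without TGF-β1 or given TGF-β1 at a low dose of 1 ng/mL or a high dose of 5 ng/mL, which is a cytokine used to drive epithelial cells toward a fibrotic, mesenchymal state. Treatment lasted 48 h in RPMI1640 medium with 1% fetal bovine serum. Each line and dose had 1 library, so there was no replicate and no test of treatment, and each interval below is a 95% interval that covers counting error only.

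Primary miRNA transcripts are cut in the nucleus into hairpins, and each hairpin gives a mature strand from its 5′ arm (5p) or its 3′ arm (3p), of which 1 usually accumulates. The mature strand pairs with messenger RNAs mainly through its seed, the bases near its 5′ end, and lowers their translation or stability. The cluster is activated by MYC and E2F factors, is abundant in proliferating cells and in lung development, and is often amplified or overexpressed in tumours, where its miRNAs are described to act on cell cycle inhibitors and on components of TGF-β signalling.

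The sequences of the 6 arms that carry the 4 seeds of the cluster are shown because the members with the same seed were compared with each other throughout. All 9 members had an entry in the RefSeq table for GRCh38. Capitals mark the seed, bases 2 to 8 counted from the 5′ end. The first pair, miR-17-5p and miR-20a-5p, carries the seed of the miR-17 family, which is described to act on CDKN1A and TGFBR2.
miR-17-5p: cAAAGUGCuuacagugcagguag
miR-20a-5p: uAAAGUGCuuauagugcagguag
miR-18a-5p: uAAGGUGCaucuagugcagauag
miR-19a-3p: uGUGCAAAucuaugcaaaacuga
miR-19b-3p: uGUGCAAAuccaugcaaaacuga
miR-92a-3p: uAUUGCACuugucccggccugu

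miR-18a-5p differs from the miR-17 family within the seed and is described to act on SMAD4 and CCN2. The 2 miR-19 arms, described as the main oncogenic arms of the cluster, differ from each other at 1 base, given as U11C from miR-19a-3p to miR-19b-3p with positions counted from the 5′ end. miR-92a-3p shares its seed with miR-25-3p and miR-92b-3p. It had the highest share of G and C among the 6 arms, 54.5%, against 47.8% in miR-17-5p, 39.1% in miR-20a-5p and 34.8% in miR-19a-3p. The other arms of 3 hairpins, miR-17-3p, miR-18a-3p and miR-20a-3p, are the strands that are usually less abundant, and each had a seed of its own.

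In GRCh38 the 6 hairpins lie on the plus strand of chromosome 13 within 787 bases, chr13:91350605-91351391, in the order MIR17, MIR18A, MIR19A, MIR20A, MIR19B1 and MIR92A1. The host gene MIR17HG spans chr13:91347820-91354579 in GENCODE, and the hairpins are exonic in 2 of its 3 annotated transcripts. The mature sequences of miR-19b-3p and miR-92a-3p are also made from a hairpin each on the X chromosome, MIR19B2 (chrX:134169671-134169766, minus strand) and MIR92A2 (chrX:134169538-134169612, minus strand), which belong to the miR-106a-363 cluster. Counts of these 2 members therefore cannot be told apart by locus.

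The libraries held 633318 to 900424 counts. Counts were scaled by the trimmed mean of M-values (TMM) to a mean effective library size of 749498, and the result is called the normalised count. Its log2 value after adding 1 is the normalised data value (ND). A miRNA was called changed when its ND was at least 8, a normalised count of 255, in at least 1 of the libraries compared, and its fold change was at least 1.4, a log2 ratio of 0.49. miR-21-5p alone took from 35.4% to 57.2% of a library, lowest in the BEAS-2B control, and the TMM factor ranged from 0.829 in A549 at the low dose to 1.32 in the BEAS-2B control. Of the epithelial markers, miR-200b-3p was counted 139 to 356 times and miR-205-5p at most 2 times. The 6 epithelial markers summed to 227.9, 385.6 and 345.6 normalised counts in A549 and 363.1, 343.9 and 325.5 in BEAS-2B libraries, control first, and miR-200b-3p was called higher in A549 cells at the low dose, with a log2 ratio of 0.91. Of the 9 markers of blood, endothelial, liver, nerve and muscle cells, 7 were counted in at least 1 library and 2, miR-223-3p and miR-133a-3p, were at 0 in all, which allows up to 3 counts each. These 9 summed to 1057.2, 1291.2 and 1363.9 normalised counts in A549 and 317.7, 281.3 and 206.9 in BEAS-2B libraries, nearly all of it the endothelial marker miR-126-3p. The other 8 summed to 6 to 20 counts, at most 14 of 1 marker (the liver marker miR-122-5p in the BEAS-2B control), and the blood marker miR-142-3p had 9, 1 and 0 counts in A549 libraries. miR-126-3p moved with treatment, opposite in sign to miR-17-5p and miR-20a-5p, with log2 ratios at the high dose of 0.38 in A549 cells and -0.64, called lower, in BEAS-2B cells. The part of these markers in the results was not tested.

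All 9 members were detected in every library, and 3 of them, miR-17-5p, miR-20a-5p and miR-92a-3p, had an ND of at least 8 in every library. In each of the 6 libraries the 5 most counted members stood in the same order: miR-92a-3p, miR-20a-5p, miR-17-5p, miR-19b-3p and miR-19a-3p. This is an order of counts, because small RNA sequences are ligated and amplified with unequal efficiency. The counts of miR-20a-5p exceeded those of miR-17-5p by 1.33 to 1.64 times, and all 6 intervals lay above 1. The counts of miR-19b-3p were 1.08 to 1.85 times those of miR-19a-3p, and in A549 the intervals of the control (0.812 to 1.45) and of 5 ng/mL (0.967 to 2.12) included 1, so these neighbours did not differ beyond counting error there. The remaining 4 members had between 1 and 41 counts.

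**Figure D1:**
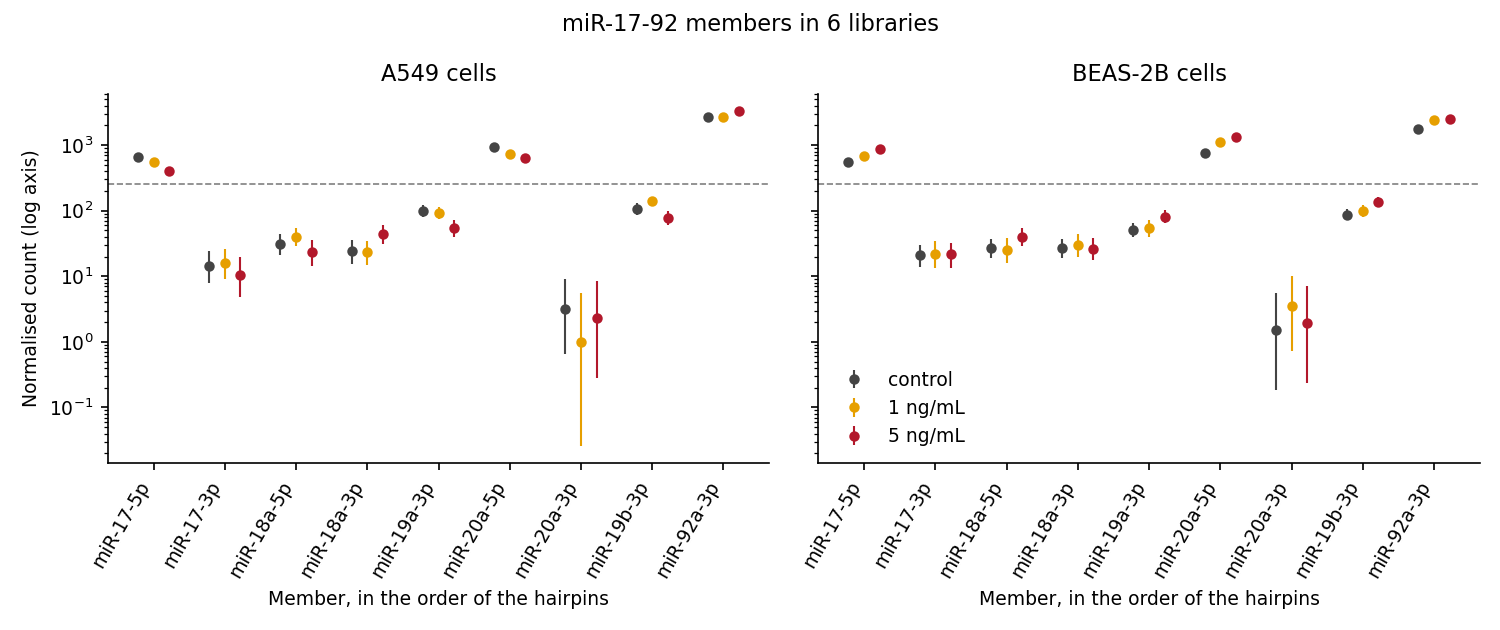
Normalised counts of the 9 members (log axis) in A549 cells (left) and BEAS-2B cells (right) without TGF-β1 (grey) and at 1 (orange) and 5 ng/mL (red), with 1 library a point and 95% Poisson intervals of the count, and a dashed line at the normalised count of 255 that the ND criterion sets. Only miR-17-5p, miR-20a-5p and miR-92a-3p lie above the line, and their points step down from grey to red in A549 for miR-17-5p and miR-20a-5p and up in BEAS-2B for all 3.

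The response of the cluster to TGF-β1 differed in shape between the lines. At the high dose the miR-17 family arms miR-17-5p and miR-20a-5p fell in A549 cells, by 0.70 and 0.60 on the log2 scale, and rose in BEAS-2B cells, by 0.66 and 0.80. miR-92a-3p rose in BEAS-2B cells as well, by 0.53, and had a log2 ratio of 0.30 in A549 cells, short of the criterion. In A549 cells the make-up of the cluster therefore moved toward miR-92a-3p, while in BEAS-2B cells the 3 abundant members were higher together. The rise in BEAS-2B cells depended on the scaling of the libraries, as given below.

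miR-17-5p, the first hairpin's main arm, had normalised counts of 654.5, 552.2 and 401.5 in A549 cells without TGF-β1 and at the low and high dose. In BEAS-2B cells its normalised counts were 546.9, 671.5 and 865.7. At the high dose the A549 library was below the BEAS-2B library under each of the 5 scalings that set the lines side by side. The order of the controls depended on the scaling, with a log2 ratio of A549 to BEAS-2B of 0.26 as scaled here, -0.28 with libraries scaled by the total count and -0.06 under TMM on filtered miRNAs, those above a mean count of 10. The log2 ratio to control in A549 cells was -0.24 (-0.41 to -0.08) at the low dose and -0.70 (-0.90 to -0.51) at the high dose. In BEAS-2B cells it was 0.30 (0.14 to 0.46) and 0.66 (0.52 to 0.81). Both values at the low dose fell short of the criterion, and both at the high dose passed it.

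miR-20a-5p carries the same seed and differs from miR-17-5p at 2 of 23 bases. Its normalised counts were 952.1, 735.0 and 629.6 in A549 cells and 752.3, 1101.0 and 1310.8 in BEAS-2B cells, in the order control, 1 and 5 ng/mL. The lowest of the 6 values was the A549 library at the high dose and the highest the BEAS-2B library at the high dose. The log2 ratio was -0.37 (-0.52 to -0.23) and -0.60 (-0.75 to -0.44) in A549 cells at the low and high dose. In BEAS-2B cells it was 0.55 (0.42 to 0.68) and 0.80 (0.68 to 0.92), past the criterion at both doses. The call at the low dose held under 3 of the 6 scalings tried, over which the value lay between 0.12 and 0.59.

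miR-92a-3p, the most counted member, had normalised counts of 2655.5, 2677.8 and 3277.1 in A549 cells. In BEAS-2B cells they were 1734.6, 2393.1 and 2500.0, so that the BEAS-2B control was the lowest of the 6 libraries. Its log2 ratio in A549 cells was 0.01 (-0.07 to 0.09) at the low dose and 0.30 (0.23 to 0.38) at the high dose. In BEAS-2B cells it was 0.46 (0.38 to 0.55) and 0.53 (0.44 to 0.61), past the criterion at the high dose.

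The miR-19 arms were counted far less often and did not reach the ND criterion. miR-19a-3p had 95, 92 and 47 counts in the A549 libraries and 66, 47 and 83 in the BEAS-2B libraries, control first. miR-19b-3p had 103, 138 and 67 counts in A549 and 113, 87 and 141 in BEAS-2B. In A549 cells both had their lowest count at the high dose. At the high dose the log2 ratio of miR-19a-3p was -0.84 (-1.39 to -0.33) in A549 and 0.67 (0.20 to 1.17) in BEAS-2B cells, and that of miR-19b-3p was -0.45 (-0.92 to -0.00) and 0.66 (0.30 to 1.04). Summed over the 2 arms the log2 ratio was -0.64 (-0.98 to -0.30) in A549 and 0.67 (0.38 to 0.97) in BEAS-2B cells, against -0.64 (-0.76 to -0.52) and 0.74 (0.65 to 0.84) for the sum of miR-17-5p and miR-20a-5p. At the low dose the intervals of the summed miR-19 arms included 0 in both lines, with values of 0.16 (-0.12 to 0.45) and 0.17 (-0.16 to 0.50).

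The low members allowed less to be said. miR-18a-5p had 30, 40 and 20 counts in A549 and 35, 22 and 41 in BEAS-2B libraries, and all 4 of its log2 ratios to control had an interval that included 0. miR-18a-3p, the other strand of that hairpin, had 23, 23 and 38 counts in A549 and 35, 26 and 27 in BEAS-2B. Its log2 ratio in A549 cells at the high dose was 0.86 (0.10 to 1.70), with a sign opposite to that of miR-18a-5p, -0.41. The ratio of the 5p to the 3p arm of this hairpin was 1.30 in the A549 control, 1.74 at the low dose and 0.526 at the high dose, a log2 change of -1.31 (-2.52 to -0.11) at the high dose, and it was 1.00, 0.846 and 1.52 in BEAS-2B cells. miR-17-3p had 9 to 27 counts, and there were 26.3 to 44.9 counts of miR-17-5p for each of them, with overlapping intervals in all 6 libraries. miR-20a-3p had 1 to 3 counts in every library, at or under the limit that a count of 0 allows, so that no change could be read from it. Of the 3 arms of the cluster outside the 9 members, miR-92a-1-5p had 13 to 19 counts, miR-19a-5p 0 to 2 and miR-19b-1-5p 0 to 5.

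**Figure D2:**
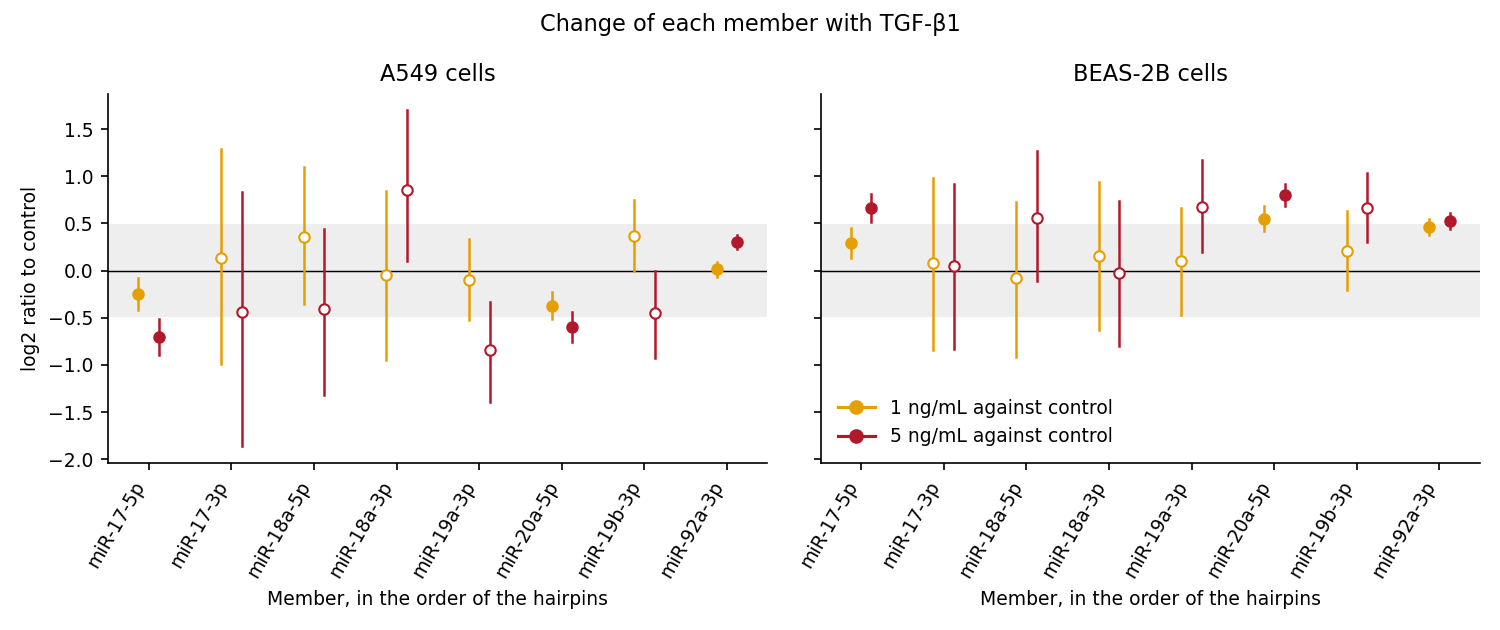
Log2 ratio to the control of the same line for 8 members at the low dose (orange) and 5 ng/mL (red) TGF-β1, with 95% intervals for counting error. Filled points have an ND of at least 8 and open points do not, and the grey band marks less than 1.4-fold. miR-20a-3p is left out because it had 1 to 3 counts. The filled red points of miR-17-5p and miR-20a-5p lie below the band in A549 and above it in BEAS-2B cells.

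Counted by the criteria, 2 of the 9 members were lower in A549 cells at the high dose and 0 were higher. Among the 141 miRNAs with enough counts for the ND criterion, 26.2% were called lower and 27.0% higher. In BEAS-2B cells 3 of 9 were higher and 0 lower, where 20.0% of 125 miRNAs were called higher and 16.0% lower. At the low dose 0 of 9 were called in A549 cells, where 48.9% of 137 were called in either direction. In BEAS-2B cells at that dose 1 was higher and 0 lower, where 15.8% of 120 were called higher and 13.3% lower. Between the 2 doses 0 were called in either line, with 16.9% of 130 called in A549 and 6.61% of 121 in BEAS-2B cells. Since 3 members met the ND criterion, the counts speak of those 3. At the high dose all 9 members had a median log2 ratio of -0.44 in A549 cells and one of 0.56 in BEAS-2B cells, beside -0.03 and -0.08 over all that met the ND criterion. At the low dose the members' medians were -0.05 and 0.21, beside -0.11 and -0.04. The medians of all 9 take in members short of the ND criterion, which the values beside them leave out. Over the 3 members that met it the medians, A549 first, were -0.24 and 0.46 at the low dose. At the high dose these 3 had -0.60 and 0.66. In A549 cells at the low dose the like-for-like median was thus below -0.11, while that of all 9 was above it. The 2 doses of a line share their control library, so their values are not independent.

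The signs of miR-17-5p and miR-20a-5p at the high dose held in both lines under all 6 scalings tried, but their calls did not. In A549 cells the log2 ratio lay between -0.83 and -0.55 for miR-17-5p, past 1.4-fold under all 6, and between -0.72 and -0.44 for miR-20a-5p, past it under 5. In BEAS-2B cells it lay between 0.25 and 0.84 for miR-17-5p, past 1.4-fold under 4 scalings, between 0.39 and 0.98 for miR-20a-5p, past it under 5, and between 0.12 and 0.71 for miR-92a-3p, past it under 3. The low ends came from scaling by the total count, under which 0 members were called in BEAS-2B cells and the median of all miRNAs moved to -0.51. Measured from the median of all miRNAs under the same scaling, miR-17-5p stood 0.73 to 0.77 higher, miR-20a-5p 0.86 to 0.91 higher and miR-92a-3p 0.59 to 0.64 higher in BEAS-2B cells under the 6 scalings. At the low dose in BEAS-2B cells the sign changed for 5 of the 9 members under the total count. Among them were miR-17-5p at -0.13, miR-19a-3p at -0.32 and miR-19b-3p at -0.21. Under TMM on filtered miRNAs the sign changed for miR-19a-3p at -0.08, miR-17-3p at -0.10 and miR-18a-3p at -0.02.

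**Figure D3:**
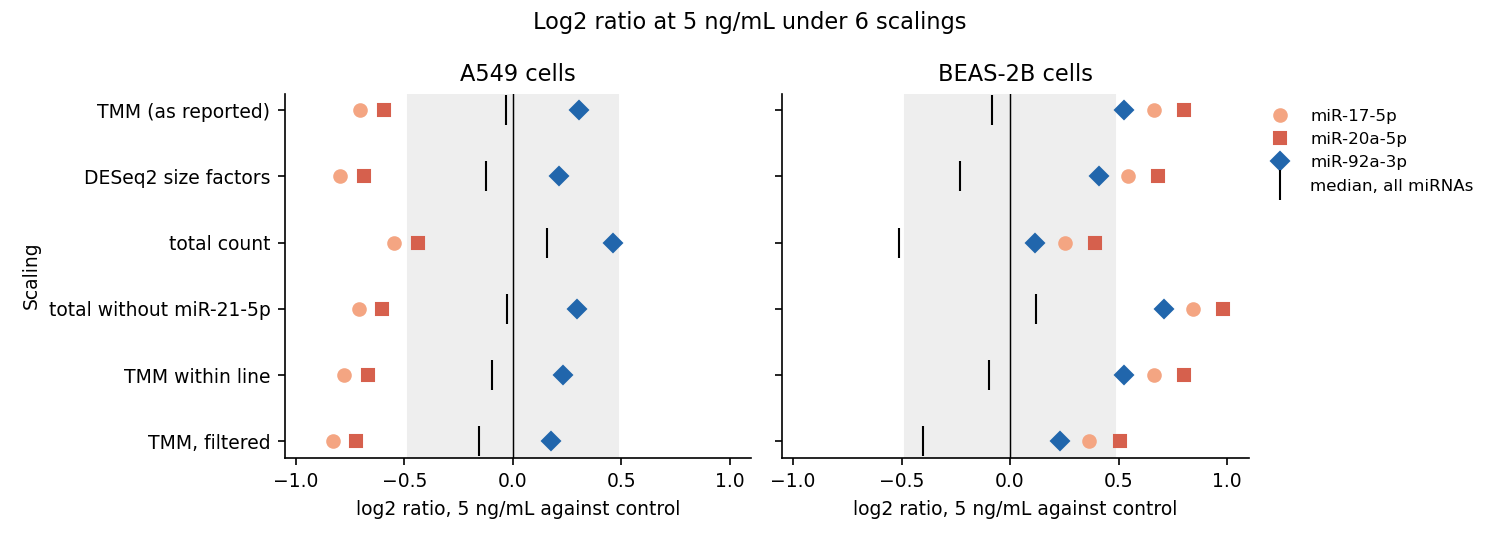
Log2 ratio at the high dose against control of miR-17-5p (circles), miR-20a-5p (squares) and miR-92a-3p (diamonds) under 6 scalings of the libraries, with the median of all miRNAs at an ND of at least 8 as a vertical tick and less than 1.4-fold in grey. In BEAS-2B cells (right) the 3 members and the median shift together, to 0.25, 0.39, 0.12 and -0.51 under the total count.

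Taken as 1 quantity, the 9 members summed to 4364, 4259 and 3885 counts in the A549 libraries and 4222, 3802 and 5086 in the BEAS-2B libraries. These were 0.553%, 0.473% and 0.613% of the A549 libraries and 0.574%, 0.579% and 0.663% of the BEAS-2B libraries. The log2 ratio of the normalised sum at the high dose was -0.01 (-0.07 to 0.06) in A549 and 0.62 (0.56 to 0.68) in BEAS-2B cells. The value near 0 in A549 cells hid opposite parts: without miR-92a-3p the other 8 members summed to a log2 ratio of -0.60 (-0.71 to -0.49). In BEAS-2B cells the same 8 gave 0.72 (0.63 to 0.80). As these are shares of libraries of whole cultures, fewer cells that hold a miRNA and less of it per cell cannot be told apart.

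Ratios of counts inside a library need no scaling between libraries. miR-92a-3p had 4.06, 4.85 and 8.16 counts for each count of miR-17-5p in the A549 control and at the low and high dose. In BEAS-2B cells the ratio was 3.17, 3.56 and 2.89. The A549 library at the high dose stood above the other 5, and its interval of 7.30 to 9.15 overlapped none of theirs. The log2 change of this ratio at the high dose was 1.01 (0.80 to 1.22) in A549 and -0.14 (-0.30 to 0.03) in BEAS-2B cells, a difference between the lines of 1.14 (0.88 to 1.41).

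The ratio of miR-92a-3p to miR-20a-5p was 2.79, 3.64 and 5.21 in the A549 libraries, again highest at the high dose. The BEAS-2B libraries had 2.31, 2.17 and 1.91. Its log2 change at the high dose was 0.90 (0.73 to 1.07) and -0.27 (-0.42 to -0.13), a difference of 1.17 (0.95 to 1.398). By contrast, the ratio of miR-20a-5p to miR-17-5p, which share the seed and the locus, had log2 changes at the high dose of 0.11 (-0.14 to 0.36) and 0.14 (-0.05 to 0.33). The ratio of miR-19a-3p to miR-17-5p changed by -0.15 (-0.72 to 0.41) and 0.02 (-0.49 to 0.53), and that of miR-19b-3p to miR-17-5p by 0.25 (-0.26 to 0.75) and 0.01 (-0.39 to 0.41). The intervals for the miR-19 arms are wide and do not show that these members moved alike.

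The share of miR-92a-3p among the 9 members' counts was 58.5%, 62.6% and 72.5% in the A549 libraries, control first, against 53.4%, 54.4% and 50.1% in the BEAS-2B libraries. miR-17-5p held 14.4%, 12.9% and 8.88% in A549 against 16.8%, 15.3% and 17.4% in BEAS-2B libraries. miR-20a-5p held 21.0%, 17.2% and 13.9% against 23.2%, 25.01% and 26.3%. Base composition moved with this split, since miR-92a-3p has the most G and C of the 3. A linear trend on the share of G and C was removed as an alternative chosen after seeing the data. The log2 change at the high dose in A549 cells was then 0.86 for miR-92a-3p to miR-17-5p and 0.57 for miR-92a-3p to miR-20a-5p. For miR-20a-5p to miR-17-5p, which also differ in G and C, it was 0.29 against 0.11 before, so this pair moved further apart.

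**Figure D4:**
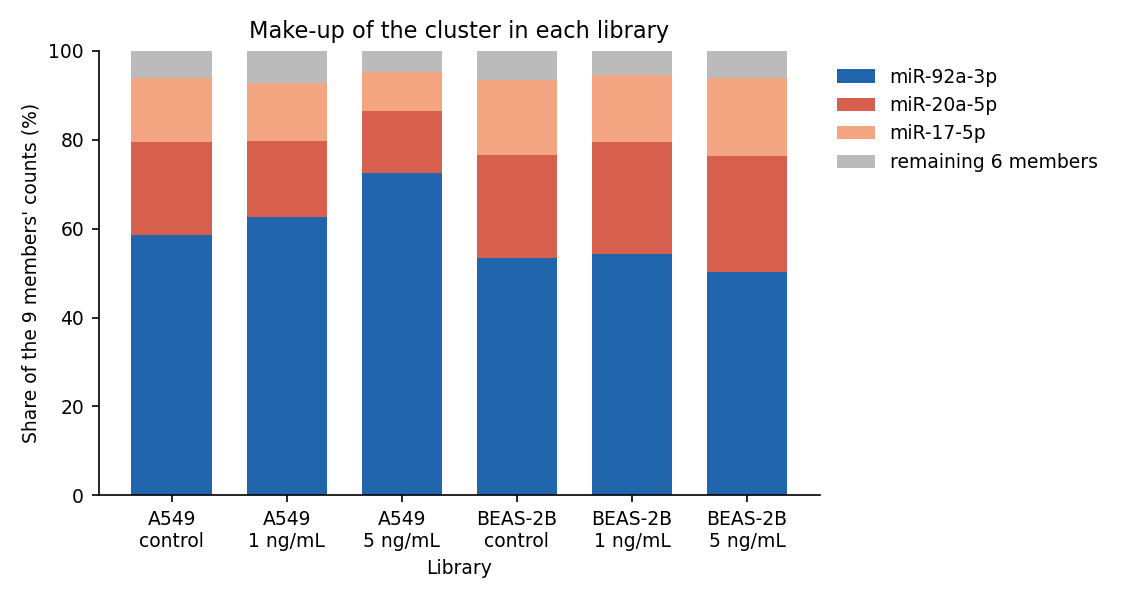
Share (%) of the 9 members' counts held by miR-92a-3p, miR-20a-5p, miR-17-5p and the remaining 6 members in each of the 6 libraries. The miR-92a-3p part grows from 58.5% to 72.5% across the A549 libraries and is between 50.1% and 54.4% in the BEAS-2B libraries.

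The difference between the lines in the log2 ratio to control, A549 minus BEAS-2B, was -1.37 (-1.61 to -1.13) for miR-17-5p and -1.398 (-1.60 to -1.20) for miR-20a-5p at the high dose. It was -1.53 (-2.26 to -0.81) for miR-19a-3p, -1.13 (-1.73 to -0.53) for miR-19b-3p and -0.22 (-0.34 to -0.11) for miR-92a-3p. At the low dose it was -0.54 (-0.77 to -0.31) for miR-17-5p, -0.92 (-1.12 to -0.73) for miR-20a-5p and -0.45 (-0.57 to -0.33) for miR-92a-3p, and the miR-19 arms had intervals that included 0. Over the 6 scalings the difference at the high dose lay between -1.55 and -0.80 for miR-17-5p, between -1.58 and -0.83 for miR-20a-5p and between -0.41 and 0.34 for miR-92a-3p, whose sign thus depended on the scaling. Of the 3 members with enough counts for the ND criterion in both lines, 2, miR-17-5p and miR-20a-5p, were below control at both doses in A549 cells and above it at both in BEAS-2B cells, as were 15.3% of the 111 miRNAs with enough counts. Under the total count 1 member, miR-20a-5p, had that pattern.

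Between the control libraries, miR-92a-3p was higher in A549 cells by 0.61 (0.53 to 0.70) on the log2 scale. The call held under 3 of 5 scalings, and the value was 0.08 under the total count and 0.29 under TMM on filtered miRNAs. It was the 1 member called there, where 40.7% of 135 miRNAs were called higher and 28.1% lower. At the low dose 1 member was called, miR-20a-5p, lower in A549 cells at -0.58 (-0.72 to -0.44), where 38.5% of 143 were called higher and 25.9% lower. At the high dose 2 were called, miR-17-5p at -1.11 (-1.29 to -0.93) and miR-20a-5p at -1.06 (-1.20 to -0.91), both lower in A549 cells, where 38.4% of 146 were called higher and 29.5% lower. These comparisons use the same libraries as those above. miR-19a-3p, below the ND criterion, had log2 ratios of A549 to BEAS-2B of 0.95 (0.49 to 1.44) in the controls and -0.56 (-1.12 to -0.04) at the high dose.

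The human genome holds 2 paralogous clusters. The miR-106b-25 cluster, which carries the miR-17 seed in miR-106b-5p and miR-93-5p and the miR-92 seed in miR-25-3p, was about as abundant, with 3615 to 6614 counts over its 6 arms. miR-106b-5p had 352, 242 and 129 counts in A549 and 451, 336 and 459 in BEAS-2B libraries. It fell in A549 cells at both doses, with log2 ratios of -0.59 (-0.83 to -0.35) and -1.28 (-1.59 to -0.99), and had 0.16 and 0.37 in BEAS-2B cells. Under TMM it was the 1 arm of this cluster called in A549 cells at each dose, and none was called in BEAS-2B cells. miR-93-5p had log2 ratios of -0.47 (-0.58 to -0.35) in A549 and 0.29 (0.20 to 0.39) in BEAS-2B cells at the high dose, and miR-25-3p had 0.41 (0.31 to 0.51) and -0.08 (-0.17 to -0.00), all short of the criterion. Calls of this cluster were not recomputed under other scalings. The total count shifts log2 ratios in BEAS-2B cells at the high dose by about -0.41. This is more in size than the 0.29 of miR-93-5p and the 0.37 of miR-106b-5p. The signs in BEAS-2B cells and the absence of calls there are thus given for TMM alone.

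The division between these seeds could be measured at that locus too. The ratio of miR-25-3p to miR-93-5p, a pair chosen after its values were seen, was 0.914, 1.43 and 1.68 in the A549 libraries against 1.53, 1.55 and 1.18 in the BEAS-2B libraries. Its log2 change at the high dose was 0.88 (0.73 to 1.03) in A549 and -0.38 (-0.50 to -0.25) in BEAS-2B cells, a difference of 1.26 (1.06 to 1.45). The summed cluster had log2 ratios under TMM of -0.09 (-0.15 to -0.02) and 0.07 (0.01 to 0.12) at the high dose. In BEAS-2B cells the ratio of miR-17-5p to miR-93-5p changed by 0.37 (0.20 to 0.54) and that of miR-92a-3p to miR-25-3p by 0.61 (0.49 to 0.73). Both lay above 0, so these members differed there from their counterparts in the miR-106b-25 cluster. Counts of miR-92a-3p cannot be assigned to chromosome 13 alone. In A549 cells the ratio of miR-17-5p to miR-93-5p changed by -0.24 (-0.46 to -0.01) and that of miR-92a-3p to miR-25-3p by -0.11 (-0.24 to 0.02). The other arm of that cluster with the miR-17 seed is miR-106b-5p. The ratio of miR-17-5p to it changed by 0.58 (0.23 to 0.94) in A549 and 0.29 (0.05 to 0.53) in BEAS-2B cells. The sign for miR-17-5p in A549 cells thus depended on the arm chosen.

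**Figure D5:**
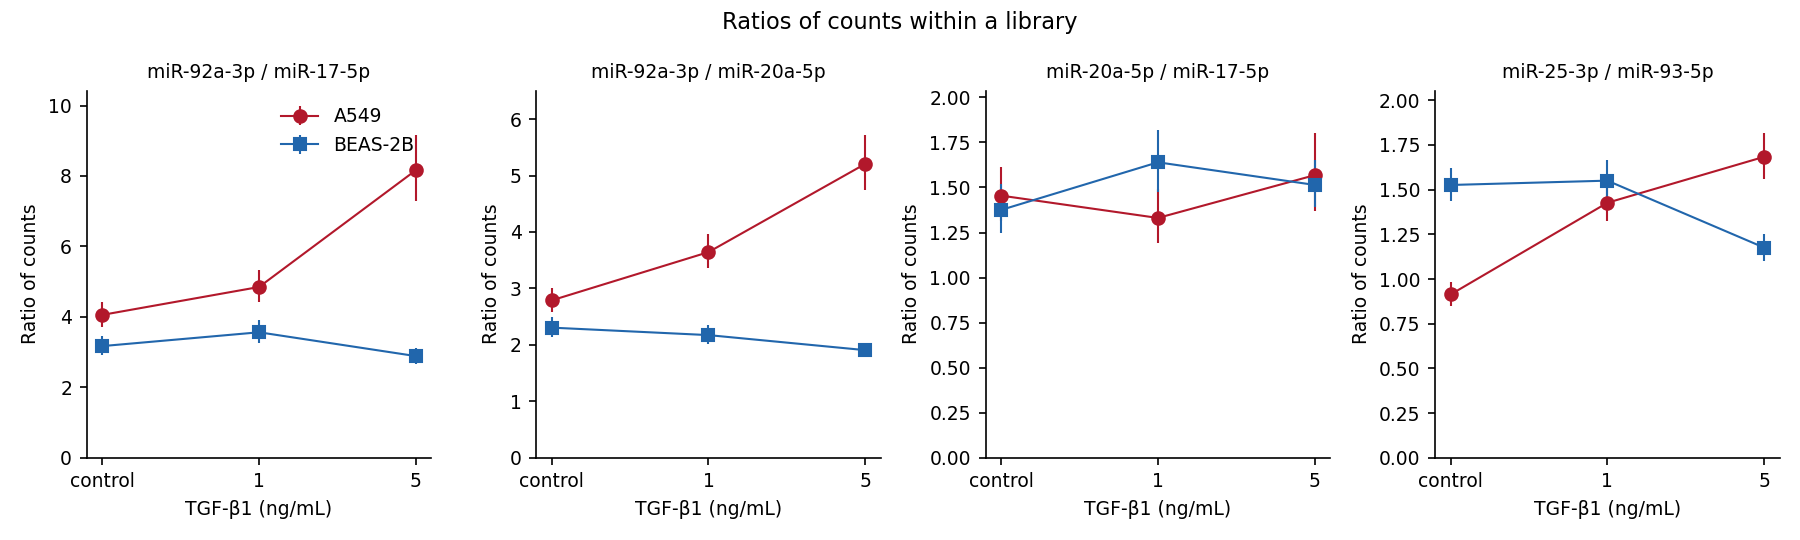
Ratio of counts within a library by TGF-β1 dose (control, 1 and 5 ng/mL) in A549 (red circles) and BEAS-2B (blue squares), with 95% intervals for counting error, for miR-92a-3p to miR-17-5p, miR-92a-3p to miR-20a-5p, miR-20a-5p to miR-17-5p and, in the paralogous cluster, miR-25-3p to miR-93-5p. The A549 line climbs in the panels with miR-92a-3p or miR-25-3p, to 8.16, 5.21 and 1.68, and is between 1.33 and 1.57 in the panel of miR-20a-5p to miR-17-5p.

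The miR-106a-363 cluster on the X chromosome was scarce in these libraries, with 39 to 76 counts over its 10 arms, and none reached the ND criterion. miR-106a-5p, which differs from miR-17-5p at 1 base, C1A from miR-17-5p to miR-106a-5p, had 37, 28 and 22 counts in A549 and 25, 35 and 54 in BEAS-2B libraries. Its log2 ratio at the high dose was 1.41 (0.75 to 2.21) in BEAS-2B and -0.57 (-1.42 to 0.21) in A549 cells. Reads of such near-identical pairs may have been divided between them in counting. With miR-19b-3p and miR-92a-3p, which that cluster shares, left out, the remaining 7 members summed to log2 ratios of -0.61 (-0.72 to -0.50) in A549 and 0.72 (0.63 to 0.81) in BEAS-2B cells at the high dose.

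Among the miRNAs of other loci with the miR-92 seed, miR-92b-3p had 447, 286 and 317 counts in A549 and 1107, 436 and 571 in BEAS-2B libraries. It fell in BEAS-2B cells at both doses, by 0.75 and 0.60 on the log2 scale, and in A549 cells at the low dose, by 0.69. In A549 cells at the high dose it had -0.33 (-0.55 to -0.12), short of the criterion. miR-32-5p fell in A549 cells at the high dose, by 0.75, and had -0.15 (-0.39 to 0.09) in BEAS-2B cells. The seed shared with miR-92a-3p therefore did not go with 1 direction across loci. miR-526b-3p, miR-519d-3p and miR-367-3p had at most 1 count in a library.

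Likeness of pattern was measured as the root mean square difference in ND over the 6 libraries, each miRNA centred on its own mean, from the summed members. There were 157 candidates, those reaching the ND criterion in at least 1 library, and miR-92a-3p was nearest at 0.17, as a part of that sum. Outside the listed clusters the nearest 5 were miR-503-5p (0.18), miR-1291 (0.19), miR-7-5p (0.21), let-7e-5p (0.21) and miR-3529-3p (0.23). miR-20a-5p and miR-17-5p ranked 20 and 22, so the sum followed its most counted member. For the nearest 5 the log2 ratios at the high dose, A549 first and BEAS-2B second, were 0.01 and 0.33 for miR-503-5p, -0.30 and 0.98 for miR-1291, -0.19 and 0.62 for miR-7-5p, 0.51 and 0.51 for let-7e-5p, and -0.25 and 0.62 for miR-3529-3p. These values and the ranking are under TMM, and neither was recomputed under other scalings. The total count shifts log2 ratios in BEAS-2B cells at the high dose by about -0.41, more in size than the 0.33 of miR-503-5p. The hairpin of miR-3529 overlaps that of MIR7-2 on the opposite strand, and the handling of strand in counting is not given in the sources used here, so miR-7-5p and miR-3529-3p may share reads.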

How the data were processed

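Small RNA libraries were made from total RNA with the NEBNext Multiplex Small RNA Library Prep kit, per the labels, which mention no molecular identifiers. The authors deposited raw read counts per mature miRNA, 2588 in each of 6 libraries. The submitters' processing notes name Bowtie2 and bedtools, and what each did, which build and annotation they ran on and whether strand was used are not given in the sources used here. Totals of 633318 to 900424 counts put the limit of a count of 0, 3 counts, at 2.31 to 3.49 normalised counts.

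Counts were normalised here by TMM over all 6 libraries (edgeR 4.0.16, R 4.3.3), with a pseudocount of 1 in ND. The thresholds are the study's, and the greater ND of the 2 libraries was used. Intervals of ratios came from exact conditional binomial limits (Clopper-Pearson, scipy 1.17.1). Changes in a within-library ratio, and line differences in a log2 ratio to control, had exact limits of a conditional odds ratio. For line differences in the change of a within-library ratio a normal approximation on the log scale was used. With 1 library a group no p-value was computed. Other scalings (DESeq2 1.42.0 among them), filters and thresholds were tried as alternatives.

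Groups came from sample titles. The members, lists, pairs and tests were chosen with earlier results of these data known. Named miRNAs are the members, fixed lists of paralogues, seed kin and markers, and the 5 others nearest in pattern. Sequences are from RefSeq and positions from GENCODE, both on GRCh38.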

Additional observations from a re-analysis of the deposited data

Results flagged for a closer look

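With TMM scaling 4 members had log2 ratios below 0 in A549 cells and above 0 in BEAS-2B cells at both doses, of which miR-20a-3p, with 1 to 3 counts a library, allows no change to be read. The difference in log2 ratio to control, A549 minus BEAS-2B, was -0.54 at 1 ng/mL and -1.37 at 5 ng/mL for miR-17-5p. It was -0.92 and -1.398 for miR-20a-5p, -0.20 and -1.53 for miR-19a-3p, and -2.81 and -0.77 for miR-20a-3p. With 1 library a group the difference between the lines was not tested against replicate spread. Counting intervals lay below 0 for miR-17-5p and miR-20a-5p at both doses and for miR-19a-3p at 5 ng/mL, and included 0 for miR-20a-3p at both doses and for miR-19a-3p at 1 ng/mL. The direction in BEAS-2B cells depended on the scaling for 3 of the 4. Under the total count miR-17-5p was at -0.13 and miR-19a-3p at -0.32 at 1 ng/mL, miR-20a-3p was at -0.04 at 5 ng/mL, and 1 of the 4, miR-20a-5p, kept opposite signs in the lines at both doses. Under TMM on filtered miRNAs miR-19a-3p was at -0.08 at 1 ng/mL. The BEAS-2B values share 1 control library, which had the lowest share of miR-21-5p, 35.4%, and the highest TMM factor, 1.32. Their part in these differences was not tested.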

How the results depend on the processing

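No paired analysis was possible because each group had 1 library, and leaving out a replicate was not possible either. The counts of called members, medians and sums in 9 comparisons were recomputed under other settings, giving 261 values, of which 59 moved, and 5 of the sums and medians changed sign, 4 under the total count and 1, the median between the control libraries at -0.0182, under TMM on filtered miRNAs; of 702 values for single members 54 moved and 32 changed sign, none of them a called one. A median, sum or single value was taken as moved when it left a counting interval of the main result. A small change in a count of called members, such as from 3 to 2, was not taken as moved. Values are log2 ratios, in the order 1 vs 0, 5 vs 0 and 5 vs 1 ng/mL where a line has several.

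Scaling changed most, and the shift follows from the new library factors. The share of all miRNAs called was not recomputed for the other settings. Counts of called members here and below therefore have no background beside them. Under the total count the sum gave -0.22, 0.15 and 0.38 in A549 and 0.0113 and 0.21 (1 vs 0 and 5 vs 0) in BEAS-2B cells, and -0.0550 and -0.29 between the lines at 0 and 1 ng/mL. The median of the members became -0.16 (A549, 5 vs 1), -0.21 (BEAS-2B, 1 vs 0), and -0.23 and -0.53 between the lines at 0 and 1 ng/mL. The count of called members became 1, 1 and 1 in A549, 0 and 0 in BEAS-2B (1 vs 0 and 5 vs 0), and 0 and 2 between the lines. With DESeq2 size factors the sum was -0.18 and -0.10 in A549, 0.37 and 0.50 in BEAS-2B and -0.12 between the lines at 1 ng/mL. In BEAS-2B 0 and 2 members were then called (1 vs 0 and 5 vs 0). With TMM within each line the A549 sums were -0.15 and -0.0792. With TMM on miRNAs above a mean count of 10 they were -0.13 (5 vs 0) and 0.0136 (5 vs 1), with 0.26, 0.32 and 0.0670 in BEAS-2B and 0.16, -0.24 and -0.29 between the lines, the median between the lines at 1 ng/mL was -0.48, and called members were 1 (A549, 5 vs 1), 0 and 1 (BEAS-2B, 1 and 5 vs 0) and 0 (controls). With miR-21-5p left out of the total the sum was 0.80 and 0.32 (5 vs 0 and 5 vs 1) in BEAS-2B and 0.41, -0.18 and -0.40 between the lines, the BEAS-2B median 5 vs 1 was 0.39, and 2 and 1 members were called in BEAS-2B (1 vs 0 and 5 vs 1).

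At least 2-fold left 0 members called at 5 vs 0 in either line, at 1 vs 0 in BEAS-2B and between the lines at 0 and 1 ng/mL. Requiring the interval beyond 1.4-fold left 1 in A549 (5 vs 0), 0 and 2 in BEAS-2B (1 vs 0 and 5 vs 0) and 0 between the lines at 1 ng/mL. An ND of at least 7 gave 1 in A549 (5 vs 1). With the trend on G and C removed, chosen after seeing the data, 1 member was called in A549 (5 vs 0), and the sum was -0.0736 there and -0.23 between the lines at 5 ng/mL; the cause was not tested. Depth limited miR-18a, miR-17-3p and miR-20a-3p, whose intervals mostly included 0.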
